A study of Mus musculus with 12 samples.

Results

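The genes for the proteases of the lysosome, for the proton pump that acidifies it and for its main membrane glycoproteins were followed in 12 RNA-Seq libraries of U2OS cells, a human osteosarcoma line. The members were the protein-coding genes of the deposited FPKM table whose full name begins with "cathepsin", "ATPase H+ transporting" or "lysosomal associated membrane protein". This gave 44 of the 58735 genes listed, 19951 of which are protein coding. There were 15 cathepsins, 25 V-ATPase genes and 4 LAMPs, and the V-ATPase genes divided into 9 of the V0 sector, 13 of the V1 sector and 3 accessory ones. TCIRG1, the a3 subunit of the same pump, has a full name of another form and was therefore no member. It is described beside the other subunit a genes. A further 10 cathepsin and 14 V-ATPase entries with these names are not protein coding and were left out.

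The 12 libraries form 4 groups of 3: U2OS cells labelled blank, cells given the siRNA siSRSF1-2, cells given the siRNA siSRSF1-3, and cells labelled OE-LINC01134, which overexpress the long non-coding RNA LINC01134 by a means not given in the sources used here. SRSF1 is a splicing factor, and the study asked what its loss does to the transcripts of osteosarcoma cells. None of the 12 libraries comes from cells given a control siRNA or an empty vector, so the act of transfection and the loss of SRSF1 cannot be told apart in any comparison with blank cells. All libraries come from the same line. The methods place the transient transfections in HOS, another osteosarcoma line, and the labels name mouse as the organism, while the table lists human Ensembl genes and the labels name U2OS. FPKM stands for fragments per kilobase of gene, scaled to the depth of the library, and compares levels per length, so that genes can be set side by side.

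Lysosomes break down proteins, lipids and sugars at low pH. The V-ATPase pumps protons into them. Its V1 sector lies in the cytosol and splits ATP in a ring of A and B subunits, held by the stators C, E, G and H and turning a stalk of D and F, while its V0 sector lies in the membrane and carries protons through a ring of c subunits past subunit a. Cathepsins are made as inactive precursors and cut themselves or each other once the pH falls. Most are cysteine proteases, CTSD and CTSE are aspartic proteases, and CTSA and CTSG are serine proteases. LAMP1 and LAMP2 coat the inner face of the lysosomal membrane. In bone, the osteoclast uses a plasma membrane V-ATPase with the a3 and d2 subunits, together with CTSK, to dissolve mineral and matrix.

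The depth was 26237763 to 32954539 reads on genes, recovered from the FPKM, of which 100% were multiples of a whole read within 0.01 of a read. SRSF1 was lower in each siRNA library (FPKM 3.33 to 7.90) than in each blank library (19.8 to 35.9), and LINC01134 was at 878 to 1279 in the OE-LINC01134 libraries and at 0.50 to 0.79 in blank cells. For SRSF1 the log2 fold change was -1.72 with siSRSF1-2 (adjusted p = 0.00500 from limma) and -2.09 with siSRSF1-3 (adjusted p = 0.0518), and blank replicate 1 (35.9) lay above the other two. For each of these comparisons the exact two-sided permutation test gave p = 0.1, the smallest that 3 libraries against 3 allow. The markers VIM, RUNX2, ALPL, COL1A1 and CDH2 were present, while SP7 and COL1A2 of the same mesenchymal and osteoblast list were under 1 FPKM in every library. Of 10 osteoclast and macrophage markers, 8 were under 1 FPKM in every library, and their summed FPKM was 0.675 to 3.48 (2.40 to 3.48 in blank cells, 1.62 to 1.87 with siSRSF1-2, 1.89 to 2.53 with siSRSF1-3). Summed FPKM of the mesenchymal list was 224 to 306 in blank cells, 104 to 292 with OE-LINC01134, 108 to 111 with siSRSF1-2 and 114 to 220 with siSRSF1-3, and of 4 epithelial markers 105 to 186, 63.6 to 149, 63.2 to 66.2 and 72.1 to 224.

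Several libraries stood apart from their group. The chi-square per degree of freedom between read counts was 2.75 for blank replicates 2 and 3, 2.13 for OE-LINC01134 replicates 1 and 3, and 2.60 to 3.2 among the siSRSF1-2 libraries, which is above counting noise but little above it. It was 63.2 and 66.4 for blank replicate 1 against the other two, 66.5 and 68.6 for OE-LINC01134 replicate 2 against its own group, and 92.8 to 316 among the siSRSF1-3 libraries. Blank replicate 1 was nearer to OE-LINC01134 replicate 2 (44.9) than to the other blank libraries, and siSRSF1-3 replicate 3 was nearer to the siSRSF1-2 libraries (30.0 to 39.8) than to its own group. A figure legend of the study speaks of 3 experimental repeats, and its supplementary methods of 2 biological replicates per condition, where each group here has 3 libraries. Neither says that the replicates came from separate cultures, so p-values measure the spread between these libraries, which may be technical. The library size implied by the deposited FPKM was 0.712 of the reads counted in siSRSF1-3 replicate 1 and 0.888 in replicate 2, against 0.990 to 1.09 elsewhere, so the FPKM of these libraries are set higher than a scaling by own reads would set them.

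In blank cells the cathepsins held the top of the range. CTSB, a cysteine protease with both endopeptidase and carboxydipeptidase activity, was highest at 204 ± 15.4 FPKM (SD, n = 3). CTSZ, a carboxypeptidase, followed at 134 ± 5.0, then LAMP1 at 103 ± 4.68 and the endopeptidase CTSL at 88.9 ± 15.5. The ranges of CTSB, CTSZ and LAMP1 did not overlap, whereas LAMP1 overlapped CTSL, and CTSL overlapped ATP6V0E1, the small membrane subunit e1, at 67.9 ± 6.54. CTSD, the main aspartic protease, and CTSA, which trims peptides and shields neuraminidase, stood at 47.1 ± 6.58 and 45.9 ± 3.29 with overlapping ranges. CTSB, CTSZ, CTSL, CTSD and CTSA made up 93.7% to 95.9% of the summed FPKM of the 15 cathepsins in every library of the series.

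**Figure D1:**
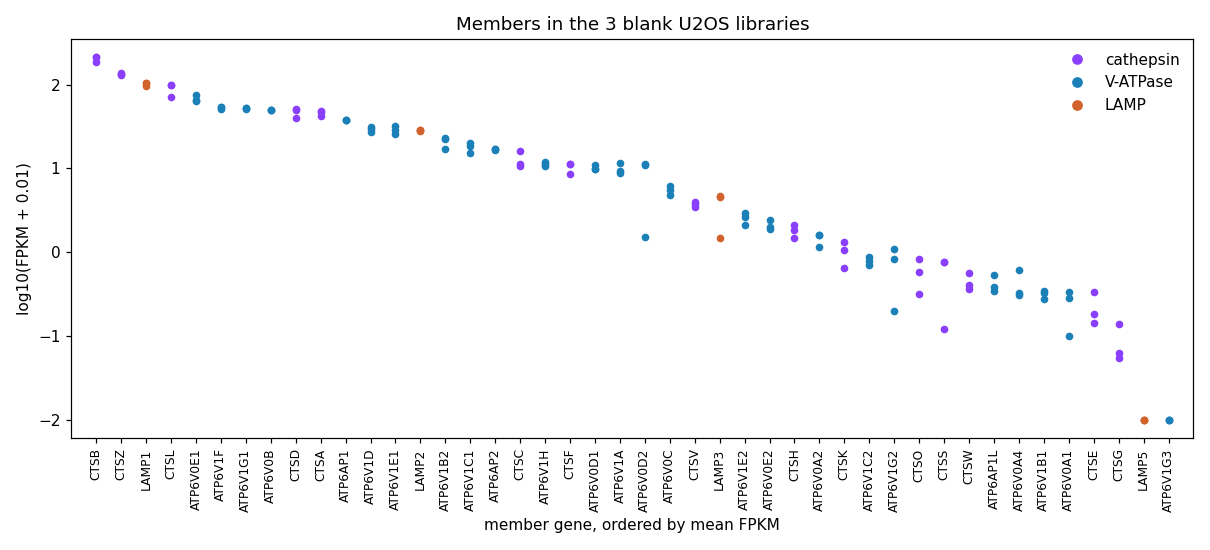
Levels of the 44 members in the 3 blank libraries, as log10(FPKM + 0.01) on the y axis, with 1 point per library and genes ordered by mean FPKM on the x axis. CTSB, CTSZ and LAMP1 lead at over 100 FPKM, 21 members average at least 10 FPKM, and in ATP6V0D2 and LAMP3 blank replicate 1 lies below the other 2.

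Of the 44 members, 21 averaged at least 10 FPKM in blank cells and 30 at least 1 FPKM. The 9 that missed the expression filter (a mean of 0.5 FPKM over all libraries) were largely genes known from other tissues. CTSG of neutrophil granules had 0 to 6 reads per library, CTSS of antigen-presenting cells 5 to 103, CTSE of the stomach 2 to 24 and CTSW of cytotoxic lymphocytes 8 to 45. LAMP5 of neurons and dendritic cells and the kidney subunit ATP6V1G3 had 0 or 1 read, where a count of 0 allows up to 3 reads by counting error alone. ATP6V0A1, ATP6V0A4 and ATP6V1B1 completed the 9, the last pair being subunits of acid-secreting kidney cells. CTSK, the collagen-degrading protease of osteoclasts, passed the filter but was low, with FPKM of 1.05, 0.634 and 1.31 in the blank libraries and 0.914 to 1.40 in all others, so that its groups overlapped throughout.

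Several V-ATPase subunits are encoded by more than one gene, and 1 isoform carried most of the FPKM of nearly every such subunit. ATP6V1B2 held at least 98.1% of subunit B in every library, ATP6V1G1 98.0% to 99.6% of G, ATP6V0E1 96.7% to 99.4% of e, ATP6V1C1 95.5% to 98.0% of C and ATP6V1E1 90.9% to 98.2% of E. These are the isoforms known from most tissues. Subunit a was an exception in kind, because TCIRG1, the a3 isoform that osteoclasts also use, held 80.4% to 91.7%, while ATP6V0A2 held 5.15% to 17.9% and ATP6V0A1 at most 1.58%.

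Subunit d was the exception in spread. ATP6V0D2, the d2 isoform of osteoclasts, kidney and macrophages, had FPKM of 1.49, 11 and 11.4 in blank replicates 1, 2 and 3. Its share of subunit d was 11.9% in blank replicate 1 and 52.8% and 54.0% in the other two. It was 30.0% to 32.5% with siSRSF1-2, 33.2% to 48.6% with siSRSF1-3 and 5.1% to 9.0% with OE-LINC01134. The 3 blank libraries thus differed more from each other in this gene than the siRNA libraries did. Among the 10 osteoclast and macrophage markers 8 were under 1 FPKM in every library (CD68 at most 0.126), and ACP5, an acid phosphatase that osteoclasts secrete, was at 0.407 to 1.47. ITGB3 of the same list passed the expression filter and was lower with siSRSF1-2 than in blank cells (log2 fold change -1.64, adjusted p = 0.00401 from limma). Its adjusted p was 0.122 in one limma fit over all 4 groups.

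**Figure D2:**
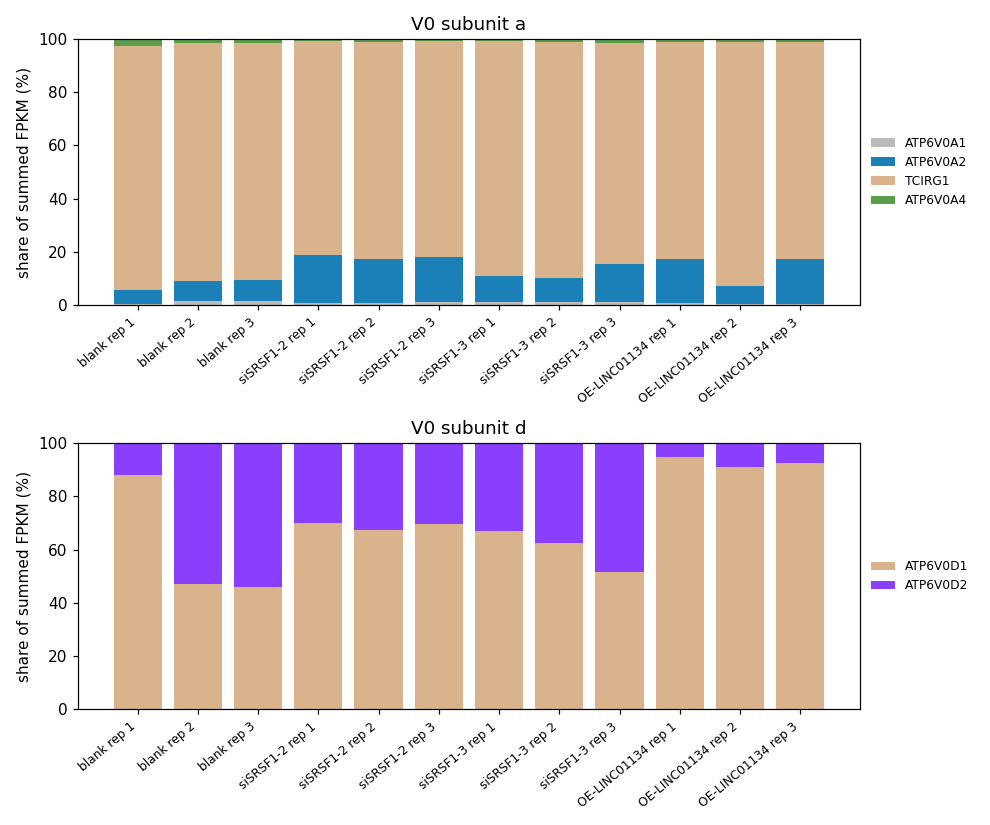
Share of the summed FPKM (y axis, percent) held by each gene for V0 subunit a (top) and V0 subunit d (bottom) in each of the 12 libraries (x axis). TCIRG1 holds over 80% of subunit a in every library, and the ATP6V0D2 share of subunit d ranges from 5.1% to 54.0%, with blank replicate 1 at 11.9%.

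Each comparison used limma on log2(FPKM + 0.1) of its own 6 libraries, over the 17538 genes past the filter, 35 of them members, and a gene was called at a Benjamini-Hochberg adjusted p under 0.05. On this scale the fold change of low genes is understated. In bulk RNA, fewer cells that hold a transcript and less of it per cell cannot be told apart.

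With siSRSF1-2, 18 of the 35 members tested were called, 11 higher and 7 lower than in blank cells. This is 51.4% of the members, against 26.8% of all genes tested (14% higher and 12.8% lower). These shares were not matched for expression level. Of the other lysosomal genes described below, 40% of the hydrolases and 51.7% of the membrane and transport genes were called. The median member hardly moved, with a log2 fold change of 0.02, as in all genes (0.02). Of the V1 sector, 6 of 11 tested genes rose and 1 fell. Of the V0 sector 2 of 7 rose and 2 fell, of the cathepsins 2 of 11 rose and 3 fell, of the LAMPs 1 of 3 rose and 1 fell, and of the 3 accessory genes none was called. Most of these differences were small. Under the study's further limit of an absolute log2 fold change over 1, LAMP3 alone was called, where 2.22% of all genes were higher and 2.73% lower.

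The siSRSF1-2 calls changed with the libraries and the fit. All of them count the nearly identical siSRSF1-2 libraries as separate replicates. With 1 library left out at a time, 8 of the 18 calls held in all 6 settings (LAMP2, ATP6V0C, ATP6V0D1, ATP6V1G1, ATP6V1H, CTSB, CTSV and CTSZ). Under one fit over all 4 groups only LAMP2, ATP6V1G1 and CTSV were called, where that fit called 1.74% of all genes higher and 2.01% lower. VIM, the mesenchymal intermediate filament, was also lower with siSRSF1-2 (77.3 to 79.1 against 181 to 244 FPKM), as was KRT18, and the sums of all 3 marker lists lay below their blank range. Single markers went both ways. Of the 5 mesenchymal and osteoblast markers tested, 4 were called lower and ALPL higher (log2 fold change 0.43). Of the 4 epithelial markers 2 were called lower and 1 lay wholly above blank cells without a call. Among all genes 12.8% were called lower and 14% higher. The part of these markers in the results was not tested.

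In the V1 sector, the clearest rise was in ATP6V1G1, a stator subunit (chromosome 9, 114587746 to 114598373 in the deposited table, whose genome build is not given in the sources used here). Its FPKM was 50.6, 52.4 and 52.1 in blank cells and 76.5, 74.4 and 77.4 with siSRSF1-2, a log2 fold change of 0.56 (SE 0.0498, adjusted p = 0.00185 from limma). The groups did not overlap. ATP6V1A, the catalytic A subunit, had FPKM of 11.5, 8.74 and 9.29 in blank cells and 13.7, 14.4 and 14.3 with siSRSF1-2, a log2 fold change of 0.53 (SE 0.110, adjusted p = 0.0187 from limma). ATP6V1H, the regulatory H subunit, rose by 0.52, ATP6V1D of the rotor stalk by 0.42, ATP6V1C1 by 0.36 and ATP6V1E1 by 0.32 (adjusted p between 0.00544 and 0.0471 from limma). The stalk subunit ATP6V1F and the other ring subunit ATP6V1B2 were not called and overlapped the blank libraries. ATP6V1E2, an isoform known from testis, went the other way, from 2.06, 2.88 and 2.59 FPKM to 1.54, 1.59 and 1.84 (log2 fold change -0.57, adjusted p = 0.0395 from limma).

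In the V0 sector, ATP6V0C, the proteolipid of the c ring (chromosome 16, 2513870 to 2520218), fell from 5.50, 6.06 and 4.82 FPKM to 3.04, 3.07 and 2.52. Its log2 fold change was -0.90 (SE 0.125, adjusted p = 0.00549 from limma), and the groups did not overlap. Of ATP6V0C 4 pseudogenes are listed, at means of 0.0121 to 0.307 FPKM, and reads that match more than one copy may have been split or lost. ATP6V0A2, the a2 isoform known from the Golgi and endosomes, rose from 1.14, 1.57 and 1.60 FPKM to 2.47, 2.49 and 2.28 (log2 fold change 0.73, adjusted p = 0.0186). TCIRG1 fell at the same time, from 17.8 to 20.3 FPKM in blank cells to 11.1 to 12.3 (log2 fold change -0.71, adjusted p = 0.00313, and 0.0925 in one fit over all 4 groups), and the a2 share of subunit a was 17% ± 0.764 against 6.90% ± 1.53 (SD, n = 3 each). ATP6V0D1, the common d1 isoform, rose by 0.51 and ATP6V0E2 fell by 0.54 on the log2 scale (adjusted p = 0.00573 and 0.0274 from limma). For ATP6V0D2 the answer depended on blank replicate 1. With it the log2 fold change was 0.17 (adjusted p = 0.886), and without it -0.77 (adjusted p = 0.000575), since the siSRSF1-2 libraries (6.21, 7.14 and 6.23 FPKM) lay between blank replicate 1 and the other two.

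Among the cathepsins with siSRSF1-2, the most abundant gene rose and the second fell. CTSB had FPKM of 186, 213 and 213 in blank cells and 278, 283 and 274 with siSRSF1-2 (log2 fold change 0.45, SE 0.0702, adjusted p = 0.00780 from limma). CTSZ (chromosome 20, 58995185 to 59007247) had FPKM of 139, 134 and 129 in blank cells and 92.3, 89.3 and 87.1 with siSRSF1-2 (log2 fold change -0.58, SE 0.0556, adjusted p = 0.00223 from limma). Neither pair of groups overlapped. The sum over the 15 cathepsins was 551 ± 35.6 FPKM in blank cells and 562 ± 6.63 with siSRSF1-2 (SD, n = 3 each), within the spread of the blank libraries.

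CTSV, a close relative of CTSL known from thymus and cornea (chromosome 9, 97029679 to 97039643), showed the deepest fall among the cathepsins, from 4.0, 3.74 and 3.45 FPKM to 1.67, 1.91 and 1.88 (log2 fold change -0.997, SE 0.102, adjusted p = 0.00255 from limma). CTSC, which activates granule serine proteases, fell from 15.9, 10.8 and 11.4 FPKM to 6.92, 6.94 and 6.94 (log2 fold change -0.84, adjusted p = 0.0122). CTSA rose by 0.37 (adjusted p = 0.0131). CTSL was not called: its FPKM was 71.0, 98.0 and 97.7 in blank cells and 69.8, 67.5 and 69.9 with siSRSF1-2 (log2 fold change -0.35, adjusted p = 0.106 from limma). The groups did not overlap, and without blank replicate 1 it was called lower (-0.50, adjusted p = 0.000111). CTSD stayed at 40.8 to 43.1 FPKM, inside the blank range of 39.5 to 51.6. A pseudogene of CTSL was listed at a mean of 6.62 FPKM over the 12 libraries, so a small part of the reads of this pair may be shared.

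The LAMPs diverged. LAMP2, which serves chaperone-mediated autophagy and the fusion of autophagosomes with lysosomes (chromosome X, 120427827 to 120469365), had the smallest adjusted p of all members. Its FPKM was 27.8, 28.4 and 28.3 in blank cells and 18.05, 18.3 and 17.6 with siSRSF1-2 (log2 fold change -0.64, SE 0.0519, adjusted p = 0.00139 from limma). LAMP3, a glycoprotein of dendritic cell lysosomes that stress also induces, had FPKM of 1.48, 4.65 and 4.47 in blank cells and 10.5, 9.69 and 10.1 with siSRSF1-2 (log2 fold change 1.65, SE 0.426, adjusted p = 0.0352). Blank replicate 1 was lowest, and without it the log2 fold change was 1.13. The call was lost without any one of the siSRSF1-2 libraries. LAMP1 was at 97.1, 105 and 105 FPKM in blank cells and at 108, 102 and 103 with siSRSF1-2, so the groups overlapped.

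**Figure D3:**
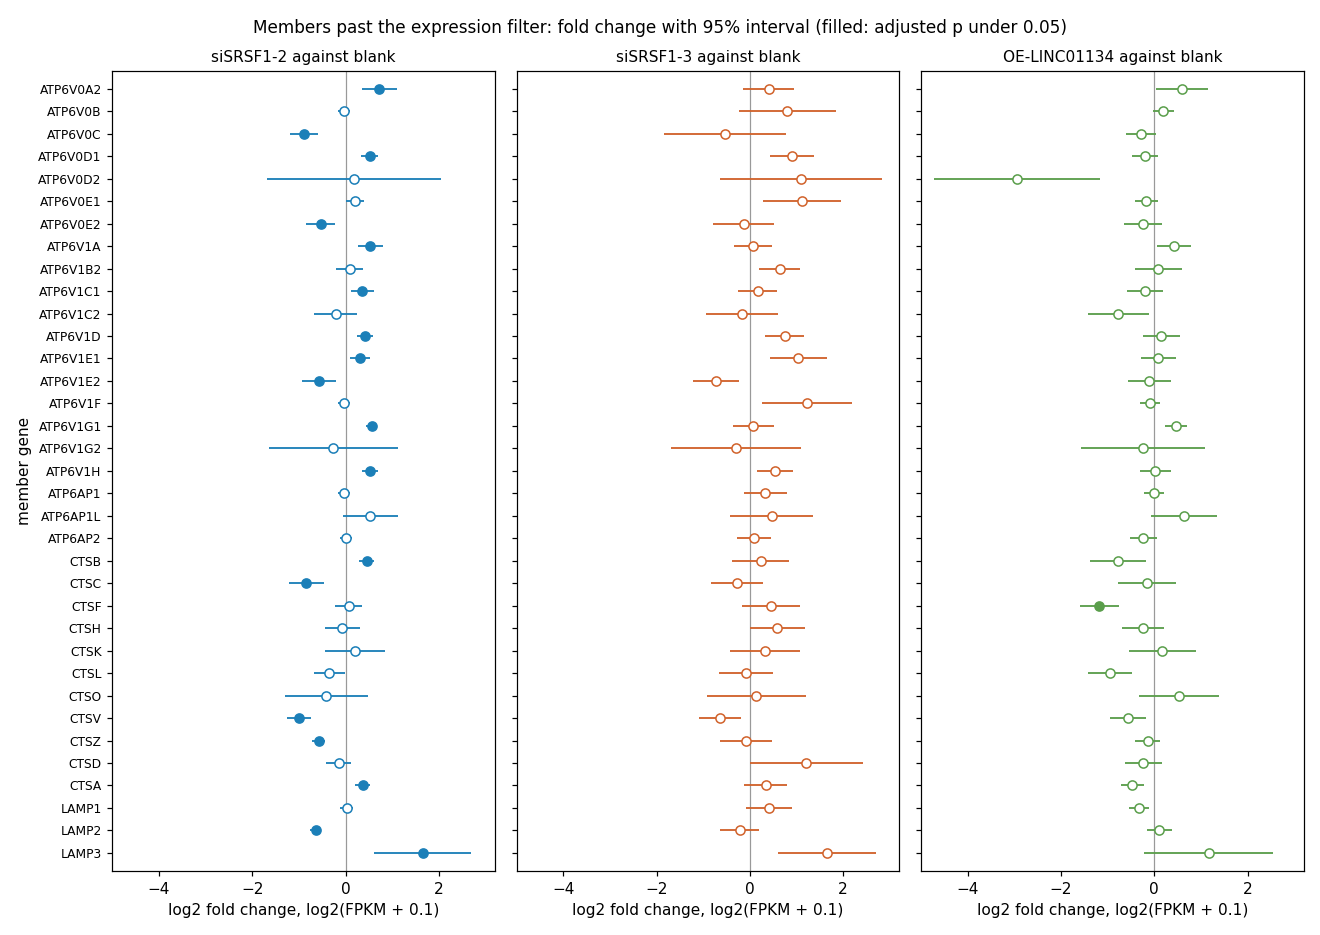
Log2 fold change on log2(FPKM + 0.1) (x axis) with its 95% interval for the 35 members past the filter (y axis), in each of the 3 comparisons with blank cells, 3 libraries against 3. Filled points are called at an adjusted p under 0.05: 18 with siSRSF1-2, none with siSRSF1-3, where intervals are wide, and CTSF with OE-LINC01134.

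With siSRSF1-3, which targets the same transcript and is compared with the same blank libraries, no member was called by limma, where 1.28% of all genes were. Without adjustment (p under 0.05), 8 members were higher and 2 lower, against 15.2% and 13.6% of all genes. Voom on the recovered reads called none of the members, whereas one fit over all 4 groups, which share its estimate of spread, called 11 higher and 2 lower, where it called 14.9% of all genes higher and 12.9% lower. The siSRSF1-3 libraries of 15 of the 35 members lay wholly above the blank libraries, against 19.2% of all genes, and 2 lay wholly below, against 18%. The median log2 fold change of the members was 0.33, and -0.01 over all genes. By replicate it was 0.41, 0.33 and 0.21. Other scalings moved members and all genes together. With every library scaled to its own reads the median of the members was 0.08 and that of all genes -0.26, and with FPKM set to the same sum they were -0.11 and -0.43. The members' median thus lay 0.35 above that of all genes as deposited, 0.34 above it by own reads and 0.32 above it at the same sum. Each scaling multiplies a whole library by a single factor. That this gap hardly changed was therefore fixed in advance and is no check of it.

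Several abundant members were highest in siSRSF1-3 replicate 1 and lowest in replicate 3. CTSD (chromosome 11, 1752752 to 1764573) had FPKM of 219, 117 and 49.3 in replicates 1, 2 and 3, where the blank libraries had 39.5, 51.6 and 50.03. ATP6V1F, the short F subunit of the rotor stalk (chromosome 7, 128862826 to 128865844), had 221, 127 and 68.6 against 51.6, 53.8 and 54.1. ATP6V0E1 had 230, 152 and 89.6 against 75.4, 63.4 and 64.8. ATP6V0B, a larger proteolipid of the c ring, had 164, 85.4 and 45.6 against 50.1, 49.5 and 49.0. In replicate 3, CTSD lay inside the blank range, ATP6V0B below it and ATP6V1F and ATP6V0E1 above it. With each library scaled to its own reads, the log2 fold change was 0.95 for CTSD and 0.96 for ATP6V1F, against 1.21 and 1.22 as deposited. Summed over the 25 V-ATPase genes, FPKM was 991, 730.5 and 521 in the siSRSF1-3 libraries and 417 to 436 in blank cells. These sums are not corrected for the FPKM total of the library, which fell in the same order. Over all genes that total was 611084, 410612 and 302504 in the siSRSF1-3 libraries and 301921 to 324607 in blank cells.

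Without siSRSF1-3 replicate 3, 11 of the 35 members were called higher and 1 lower, where 6292 of the 17538 genes were called (19.1% higher and 16.8% lower). The higher members were ATP6V0B, ATP6V0D1, ATP6V0E1, ATP6V1B2, ATP6V1D, ATP6V1E1, ATP6V1F, ATP6V1H, CTSD, CTSF and CTSH, and the lower one was ATP6V1E2. In the fit with all 3 libraries each of these 12 kept its sign under both other scalings. ATP6V0D1 was at 22.7, 19.9 and 15.1 FPKM against 9.69 to 11 in blank cells (log2 fold change 0.90, SE 0.202, adjusted p = 0.0688 from limma), the smallest adjusted p of the members. ATP6V1E1 was at 76.7, 64.6 and 42.0 against 26.0 to 31.8 (1.04, SE 0.260, adjusted p = 0.0819). Both genes lay above the blank range in all 3 libraries.

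Both siRNA groups were compared with the same blank libraries, so their values are given side by side. LAMP3 was at 8.33, 9.89 and 12.6 FPKM with siSRSF1-3 (log2 fold change 1.66, adjusted p = 0.0915 from limma), close to its levels with siSRSF1-2. CTSV was at 2.34, 2.75 and 2.01 (log2 fold change -0.64, adjusted p = 0.105), and ATP6V1E2 at 1.39, 1.46 and 1.55 (-0.73, adjusted p = 0.102), both wholly below blank cells. ATP6V1A, by contrast, was at 10.2, 9.76 and 10.6 and ATP6V1G1 at 51.6, 63.3 and 49.0 with siSRSF1-3, inside or across their blank ranges. LAMP2 was at 21.8, 23 and 28.2, and CTSZ at 124, 156 and 103. ATP6V0C was at 1.36 in replicate 1 and at 5.91 and 6.32 in the other two, so 1 library decided its mean (log2 fold change -0.53, and 0.17 without replicate 1).

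CTSB was at 289, 249 and 188 FPKM with siSRSF1-3 (log2 fold change 0.23, adjusted p = 0.567), and CTSL at 90.3, 94.8 and 67.2. CTSC was at 12, 10.9 and 8.21, and ATP6V0A2 at 1.92, 1.76 and 2.04. Of these 4, ATP6V0A2 alone lay wholly above blank cells. LAMP1 was at 153, 138 and 118 FPKM and differed by 0.41 on the log2 scale (adjusted p = 0.226 from limma) as deposited, where the median of all genes was -0.01, and by -0.04 at the same FPKM sum, where that median was -0.43. The accessory subunits ATP6AP1, which guides assembly of V0, and ATP6AP2, also known as the prorenin receptor, were at 56.3, 47.6 and 40.5 and at 18.6, 17.6 and 17.7 FPKM. In blank cells they were at 37.5 to 38 and 16.6 to 17. Their log2 fold changes were 0.33 and 0.09 as deposited, and -0.11 and -0.35 at the same FPKM sum. ATP6V0D2 was at 11.3, 12 and 14.3, and again blank replicate 1 set the result (log2 fold change 1.10, and 0.16 without it).

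The difference between the siRNAs was tested directly. No member was called for siSRSF1-3 against siSRSF1-2 by limma, where 0.0855% of all genes were, and without adjustment (p under 0.05) 12 were higher and 2 lower, against 21.9% and 20.2% of all genes. One fit over all 4 groups did call members, 9 higher (CTSD, CTSH, CTSZ, LAMP1, LAMP2, ATP6V0E1, ATP6V1B2, ATP6V1E1 and ATP6V1F) and 2 lower (ATP6V1A and ATP6V1G1), where it called 16.8% of all genes higher and 15.5% lower. In the limma fit of the 6 libraries ATP6V0D2 came nearest (log2 fold change 0.93, SE 0.136, 95% interval 0.59 to 1.26, adjusted p = 0.0602), and voom on the recovered reads called it. ATP6V1A was lower with siSRSF1-3 in every library (log2 fold change -0.46, 95% interval -0.70 to -0.22, adjusted p = 0.0749), as was ATP6V1G1 (-0.49, -0.83 to -0.14, adjusted p = 0.0842). CTSD (1.35, 0.09 to 2.62, adjusted p = 0.107) and ATP6V1F (1.25, 0.25 to 2.26, adjusted p = 0.0900) had wide intervals. For LAMP3 the difference was 0.00 with an interval of -0.41 to 0.42. The members ATP6V1C2, ATP6V1G2, ATP6AP1L and CTSO, with group means of 0.377 to 0.816 FPKM, and CTSH and CTSK were called in none of the 4 comparisons by these fits of 6 libraries. Without siSRSF1-3 replicate 3, the library nearest to siSRSF1-2 as a whole, 18 members were called higher and 4 lower, where 10731 of the 17538 genes were called (31.2% higher and 30% lower).

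**Figure D4:**
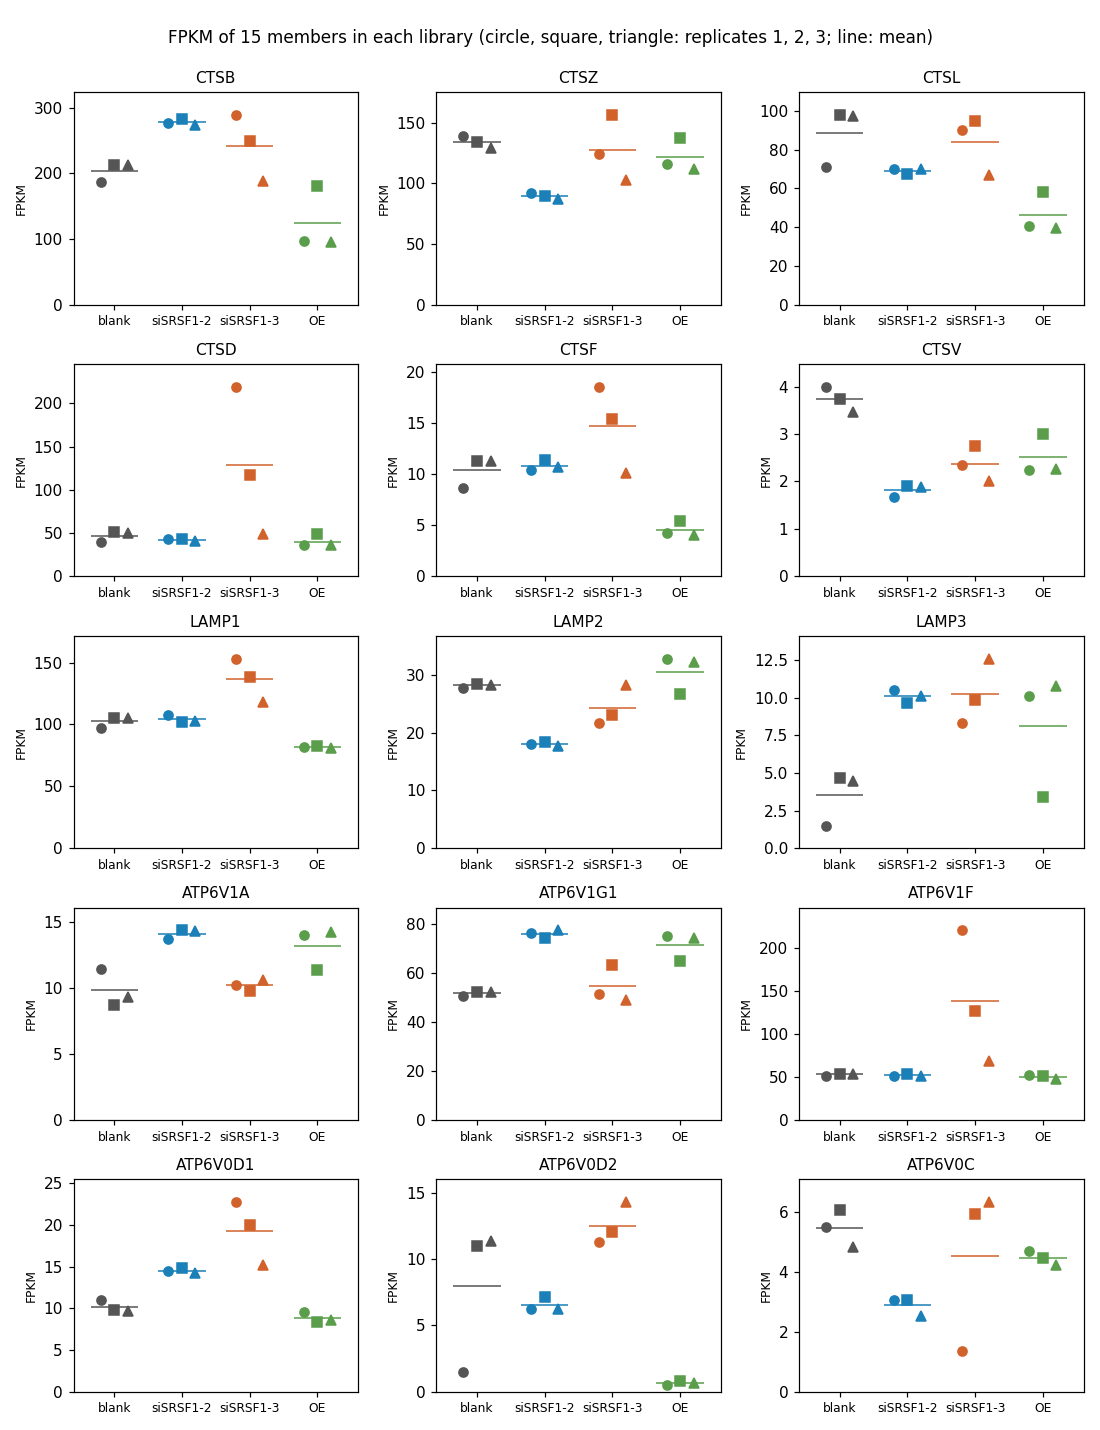
FPKM (y axis, from 0) of 15 members in every library by group (x axis), with replicates 1, 2 and 3 as circle, square and triangle and the group mean as a line. The siSRSF1-2 libraries lie close together, CTSD and ATP6V1F range from 49.3 to 219 and from 68.6 to 221 with siSRSF1-3, and OE-LINC01134 replicate 2 lies apart for CTSB, LAMP2 and LAMP3.

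In OE-LINC01134 cells 9 of the 11 cathepsins tested had a log2 fold change below 0, where 54.9% of all genes were above 0. CTSF, a cysteine protease with a long propeptide (chromosome 11, 66563463 to 66568841), was the 1 member called against the same blank libraries, where 1.18% of all genes were (0.73% lower). Its FPKM was 8.62, 11.3 and 11.3 in blank cells and 4.19, 5.45 and 4.01 in OE-LINC01134 cells (log2 fold change -1.18, SE 0.175, adjusted p = 0.0422 from limma). The groups did not overlap, but the call held in 2 of the 6 settings with 1 library left out, and was lost without blank replicate 2 or 3 or without OE-LINC01134 replicate 1 or 3. Without adjustment (p under 0.05), 8 members were lower and 3 higher, against 12.3% and 14% of all genes, and 12 of 35 lay wholly below the blank libraries, against 13.8% of all genes, and 4 wholly above, against 16.8%.

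CTSL and CTSB followed the same order of libraries. CTSL was at 40.7, 58.1 and 39.5 FPKM (log2 fold change -0.95, SE 0.1996, adjusted p = 0.0679 from limma). CTSB was at 97.0, 181 and 95.5 (-0.78, SE 0.252, adjusted p = 0.123). In both, OE-LINC01134 replicate 2 was nearest to blank cells, and over all genes it was the library nearest to blank replicate 1. CTSA was at 32.6, 34.7 and 32.0, below each blank library (-0.47, adjusted p = 0.0687). CTSV was at 2.25, 3.01 and 2.27 (-0.56, adjusted p = 0.102), while CTSD at 36, 48.7 and 35.8, CTSZ at 116, 137 and 112 and CTSC at 9.19, 16.2 and 9.34 overlapped the blank range. Summed over the 15 cathepsins, FPKM was 342, 488 and 334, against 510 to 574 in blank cells.

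The V-ATPase genes showed no such common direction in OE-LINC01134 cells, with 9 of the 21 tested above 0 and 12 below. ATP6V0D2 had the largest difference of all members, at 0.516, 0.827 and 0.674 FPKM (log2 fold change -2.94, SE 0.748, adjusted p = 0.0855). All 3 libraries lay below blank replicate 1, and without that replicate the gene was called (-3.89, adjusted p = 0.00525). ATP6V1G1 was at 75.0, 65.0 and 74.1 (0.46, adjusted p = 0.0687) and ATP6V1A at 14, 11.3 and 14.3 (0.43, adjusted p = 0.149). ATP6V0A2 was at 2.50, 1.65 and 2.57, ATP6V0C at 4.68, 4.47 and 4.23, ATP6V1E2 at 2.50, 1.91 and 2.58, ATP6AP1 at 37.0, 37.8 and 38.2 and ATP6AP2 at 13.1, 16.6 and 13.4. Of the LAMPs, LAMP1 was at 81.8, 82.2 and 81.3 FPKM (-0.32, adjusted p = 0.0953), below every blank library, LAMP2 at 32.8, 26.6 and 32.2, and LAMP3 at 10.1, 3.41 and 10.8. Without OE-LINC01134 replicate 2, 7 members were called lower (LAMP1, ATP6AP2, CTSB, CTSF, CTSL, CTSV and CTSA) and 4 higher (ATP6V0A2, ATP6V0B, ATP6V1A and ATP6V1G1), where 4467 of the 17538 genes were called (12% lower and 13.5% higher).

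Genes that work with the members were read from lists written by function. TFEB and TFE3 are transcription factors that switch on lysosomal genes and are held in the cytosol by mTORC1, which the Rag GTPases and folliculin (FLCN) bring to the lysosome. The list is wider than these genes and also holds TSC1, TSC2, DMXL1, DMXL2, WDR7, ROGDI, NCOA7 and TLDC1. Of this list, 15 of 27 tested genes were higher with siSRSF1-2 and 3 lower, against 14% and 12.8% of all genes, and the median of the list was 0.38 (0.35 with siSRSF1-3) on the log2 scale. Among the 15 were TSC1, TSC2, DMXL1, DMXL2 and NCOA7, and ROGDI was among the 3. One fit over all 4 groups called 4 of the list, all higher and DMXL1 and TSC1 among them, against 1.74% of all genes. RRAGB (log2 fold change 1.14), FNIP1 (0.90) and FLCN (0.77) had the smallest adjusted p (0.00102 to 0.00134 from limma). In the one fit RRAGB was called (adjusted p = 0.0109), and FNIP1 (0.0864) and FLCN (0.0523) were not. FLCN was at 6.51 to 6.81 FPKM in blank cells, at 11.2 to 11.7 with siSRSF1-2 and at 16.5, 13.8 and 13.7 with siSRSF1-3, where it was the only gene of the list called (1.11, adjusted p = 0.0453, lost in 5 of the 6 settings with 1 library left out). One fit over all 4 groups called 11 of the list higher and 1 lower with siSRSF1-3, against 14.9% and 12.9% of all genes. In OE-LINC01134 cells none of the 27 was called by limma (7 were higher and 2 lower without adjustment, at p under 0.05, against 14% and 12.3% of all genes).

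Of 35 other lysosomal hydrolases, 8 were higher and 6 lower with siSRSF1-2, against 14% and 12.8% of all genes, with the smallest adjusted p for DPP7 (log2 fold change 0.61), SGSH (0.77) and NEU1 (0.47), which cleave dipeptides, heparan sulfate and sialic acid. In one fit over all 4 groups SGSH was called (adjusted p = 0.0233), and DPP7 (0.158) and NEU1 (0.186) were not. The median of this list was 0.09 with siSRSF1-2 and 0.02 with siSRSF1-3. Of 29 lysosomal membrane and transport genes tested, with the member CTSA not counted, 10 were higher and 5 lower with siSRSF1-2, against the same 14% and 12.8% (median 0.15, and -0.06 with siSRSF1-3). The smallest adjusted p were those of the mannose 6-phosphate receptor IGF2R (1.15), which sorts cathepsins to the lysosome, the amino acid transporter SLC36A1 (1.03) and the chloride exchanger CLCN7 (0.85). None of these 3 was called in the one fit (adjusted p = 0.0960, 0.0543 and 0.326). With siSRSF1-3, LIPA, the lysosomal acid lipase, was the 1 hydrolase called (log2 fold change -1.76, adjusted p = 0.0356), and no membrane gene was, where 1.28% of all genes were called. The one fit called 12 of 35 hydrolases higher and 3 lower, and 3 of 29 membrane genes higher and 4 lower, against 14.9% of all genes higher and 12.9% lower. LIPA was at 9.72 to 10.2 FPKM in blank cells and at 2.39, 2.79 and 3.66 with siSRSF1-3, and the call held in 1 of the 6 settings with 1 library left out, and in the one fit. Of the cathepsin inhibitors, 8 of 16 were tested, and SERPINB1 was the only one called with siSRSF1-2 (0.41, adjusted p = 0.0485, and 0.184 in the one fit), with none called with siSRSF1-3 by limma (without adjustment, 5 were higher and 2 lower at p under 0.05, against 15.2% and 13.6% of all genes, and 5 and 2 were called in the one fit, against 14.9% and 12.9% of all genes). The median of the 8 was 0.12 with siSRSF1-2, 0.91 with siSRSF1-3 and -0.29 with OE-LINC01134. CSTA, a cystatin that blocks cysteine cathepsins, was at 22.3 to 32.8 FPKM in blank cells, at 184, 112 and 68.5 with siSRSF1-3 (1.96, adjusted p = 0.0550) and at 94.6, 75.5 and 94.1 in OE-LINC01134 cells (1.60, adjusted p = 0.0280, called in 2 of the 6 settings with 1 library left out). In OE-LINC01134 cells 2 inhibitors were higher and 2 lower, 1 hydrolase was lower (LIPA) and 1 membrane gene was lower (SORT1), where 0.45% of all genes were higher and 0.73% lower.

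Over the 12 libraries the closest pairs of members were ATP6AP1 with ATP6V1F and ATP6V1F with CTSD. The Pearson correlation of log2(FPKM + 0.1) was 0.986 between ATP6AP1 and ATP6V1F and 0.980 between ATP6V1F and CTSD, which share the 12 libraries and their scaling. Outside siSRSF1-3 their FPKM spanned only 36.1 to 38.5 (ATP6AP1), 47.7 to 54.1 (ATP6V1F) and 35.8 to 51.6 (CTSD). With siSRSF1-3 they reached 56.3, 221 and 219, so the correlations of these 3 genes rest mostly on that group. Of all genes tested, those most like CTSD were transmembrane protein 54 (0.998), transmembrane protein 219 and ADP ribosylation factor like GTPase 2 (0.996 each), and those most like ATP6V1A were PDS5 cohesin associated factor A (0.963), argonaute 3 (0.957) and POM121 transmembrane nucleoporin C (0.955). Across the 35 members the correlation of the log2 fold change with log2 length was -0.14 with siSRSF1-3, 0.12 with siSRSF1-2, 0.10 with OE-LINC01134 and -0.32 between the siRNAs, and genes are not independent replicates. Over all genes it was -0.005, -0.060, -0.034 and 0.034 in the same order. With siSRSF1-3 the median log2 fold change was -0.004 in the 8 members under 2500 bases and 0.40 in the 27 others. Over all genes these medians were 0.18 and -0.08.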

How the data were processed

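RNA-Seq was analysed in 12 U2OS libraries, 3 per group. According to the study's methods, mRNA was selected and sequenced as paired-end reads. The labels name another library kit and a mouse genome build, although the genes are human. The aligner, counter and human build are not given in the sources used here. The authors deposited 1 table of FPKM per gene, with gene lengths and coordinates. Reads were recovered from the FPKM times length, and the deposited FPKM carry the authors' own library size factors.

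Symbols were assigned by full name, and all 134 genes looked up for the lists and checks matched, the member CTSA among them. The test was limma (version 3.58.1, under R 4.3.3, by lmFit and eBayes with a trend) on log2(FPKM + 0.1), over the 17538 of 58735 genes whose FPKM averaged 0.5 or more, using the 3 + 3 libraries of each comparison. Since the table holds FPKM, no count model was the main test. The fit was tested on simulated data before use. The simulated libraries were independent, with the same setting of spread for every gene and library. That test therefore cannot show how the fit behaves with near-identical or outlying libraries.

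Members and lists were chosen with earlier results of these data known. Per-library values are given for 12 members fixed by name (CTSB, CTSD, CTSL, CTSK, CTSZ, LAMP1, LAMP2, ATP6V1A, ATP6V0C, ATP6V0D2, ATP6AP1, ATP6AP2) and for the called members with the largest log2 fold changes, up to 8 per comparison, 18 in all; other members named with values were picked after these were seen. From each list at most 3 genes with the smallest adjusted p in an siRNA comparison are named with values. TCIRG1, VIM, KRT18 and SORT1 were added with their values known. The alternatives were other pseudocounts, filters, scalings and fits, voom, a removed length trend, a block on the replicate number and leaving out single libraries. Averaging of near-identical libraries was chosen after seeing the data. Promoter and protein sequences were not analysed here. The 95% intervals of log2 fold changes come from the spread between libraries in limma, the limit that a count of 0 allows covers counting error only, and reads of paralogs may be shared between genes.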

Additional observations from a re-analysis of the deposited data

How the results depend on the processing

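With siSRSF1-2, one fit over 4 groups called 659 genes, with 1 member higher and 2 lower, the fold limit 868 genes (1 and 0), the replicate block 2476 genes (5 higher), an unadjusted p 7063 genes, and averaging of near-identical libraries, where siSRSF1-2 is a single unit assumed to vary like the other groups, called 0 genes (0 and 0). SRSF1 itself was not called under averaging, which leaves no spread within siSRSF1-2 and so cannot decide on single genes in this comparison. The siSRSF1-2 calls thus rest on counting its nearly identical libraries as replicates. In OE-LINC01134 cells averaging still called LINC01134 (adjusted p = 8.5e-05 from limma). The median log2 fold change of the members was 0.049 with averaging, -0.024 with no filter, 0.067 at a mean FPKM of at least 1, 0.068 by own reads and 0.16 at the same FPKM sum. With 1 library left out, 1830 to 9147 genes were called, with 4 to 12 members higher, 4 to 11 lower and a median of -0.031 to 0.043. Without blank replicate 1 the median was -0.031 and ATP6V0D2 turned to -0.77, where leaving out any other library gave up to 0.66.

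With siSRSF1-3 all genes called numbered 439 (pseudocount 1), 63 (pseudocount 0.01), 9 (no filter), 69 (own reads), 1 (same sum), 4870 (one fit, with 11 members higher and 2 lower), 5044 (unadjusted p, 8 and 2), 0 (replicate block), 665 (voom), 0 (averaging) and 0 to 6292 with 1 library left out (0 to 11 members higher, 0 to 1 lower). The members' median was 0.23 at pseudocount 1, 0.18 with no filter, 0.079 by own reads and -0.11 at the same sum.

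With OE-LINC01134 the numbers of genes and of lower members were 12 and 0 (no filter), 113 and 0 (no trend), 1172 and 3 (one fit), 4618 and 8 (unadjusted p, with 3 higher), 4 and 0 (replicate block), 563 and 2 (voom) and 1 and 0 (averaging), with 131 genes at pseudocount 0.01. The median was -0.073 at the same sum and -0.10 with averaging. With 1 library left out, 1 to 4467 genes, 0 to 4 higher and 0 to 7 lower members were called, with medians of -0.16 to -0.096.

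For siSRSF1-3 against siSRSF1-2, 123 and 1 genes were called at pseudocounts 1 and 0.01, 41 at a mean FPKM of at least 1, 8 at the same sum, 5658 in one fit (9 members higher, 2 lower), 7390 at an unadjusted p (12 and 2), 0 with the replicate block, 135 with voom (1 higher), 77 with the length trend removed, 0 with averaging and 0 to 10731 with 1 library left out (0 to 18 higher, 0 to 4 lower). The median was 0.063 by own reads and -0.20 at the same sum. The causes of these shifts were not tested, other than the scaling's own shift of all genes. Of the log2 fold changes of the 18 named members, 902 were the same in direction and call under the settings that kept every library, 39 lost a call, 32 gained one and 35 changed sign with no call in either setting. With 1 library left out these numbers were 368, 22, 27 and 14, and ATP6V0D2 turned as given above. Most of these values were not called in the main fits, so the unchanged ones mainly stayed uncalled. Calls were less stable. Of the 18 members called with siSRSF1-2, 8 were called in every setting with 1 library left out, 3 in the one fit and 10 with the replicate block. Replicate numbers did not pair the libraries, since the correlation of deviations between libraries of the same number was -0.08 to 0.04. The siSRSF1-2 libraries differed by more than counting noise, so averaging on that ground was not run. The 3 libraries per group limit the precision of every test, and counts of 0 limit LAMP5, ATP6V1G3, CTSG and ATP6V1B1.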
